A study of Mus musculus with 12 samples.

Results

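The growth hormone receptor variant labelled NLS was compared with the receptor labelled WT on the arrays labelled 0GH. The members were chosen by title, as the 3 NLS and the 3 WT arrays at 0GH, and make up 6 of the 12 arrays in a study of growth hormone receptor in the nucleus. Each was a 2-colour array of mouse RNA, with the sample in green (Cy3) and a commercial RNA from mouse embryos as the common reference in red (Cy5). The other 6 arrays carry the same receptors, 3 arrays each, at 1GH. All 12 samples list human growth hormone at 100 ng/ml, those titled 0GH included, and the 0 or 1 has no unit, so whether the 0GH samples had met the hormone cannot be told from the labels. Every title also holds the number 10, which the labels do not explain. The cell type, the strain, the promoter behind each receptor and the number of clones per receptor were not among the labels either. The arrays of a group carry the letters b, c and d. Nothing says that the letters are separate cultures, so all p-values measure the spread between these samples only, which may be technical.

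Growth hormone binds a receptor in the cell membrane, which activates the kinase JAK2. JAK2 then phosphorylates STAT5, and STAT5 switches on genes such as Cish and Socs2, which feed back on the receptor. A nuclear localization signal, abbreviated NLS, is a short stretch of amino acids by which import receptors carry a protein through the nuclear pore. The study's title concerns the receptor in the nucleus, and the question put to these 6 arrays is in which transcripts NLS cells stand apart from WT cells when the hormone label reads 0GH.

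By p, the first 4 named genes of the comparison were Pgam1, Phgdh, 1700012B09Rik and Eif5a, of which 1700012B09Rik lay lower on the NLS arrays and the others higher. Mybbp1a, a nucleolar gene of the fixed list, also lay higher. The promoters of these 4 higher genes are shown. Pgam1, Phgdh and Eif5a had the smallest p on the higher side. Mybbp1a was added by hand from the fixed list and is not among the 12 genes named on that side. They come from RefSeq on mouse GRCm38.p6 and cover 250 bases before to 50 bases after the annotated start, 5′ to 3′ on the gene's strand. Capitals mark CACGTG, the E-box of the Myc family. TTCNNNGAA, the form of site that STAT5 recognises, would also be in capitals but has no match in these 4 windows. Pgam1 is at chr19:41911621-41911920 on the plus strand, Phgdh at chr3:98339920-98340219 on the minus strand, Eif5a at chr11:69921337-69921636 on the minus strand (1 of 6 windows for this gene) and Mybbp1a at chr11:72441077-72441376 on the plus strand.
Pgam1: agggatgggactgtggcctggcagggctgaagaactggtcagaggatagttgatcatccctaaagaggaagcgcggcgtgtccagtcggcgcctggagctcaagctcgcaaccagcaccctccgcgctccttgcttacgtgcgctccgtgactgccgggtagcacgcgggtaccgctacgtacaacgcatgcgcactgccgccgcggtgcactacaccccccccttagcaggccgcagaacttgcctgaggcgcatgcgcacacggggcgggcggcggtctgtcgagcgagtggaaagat
Phgdh: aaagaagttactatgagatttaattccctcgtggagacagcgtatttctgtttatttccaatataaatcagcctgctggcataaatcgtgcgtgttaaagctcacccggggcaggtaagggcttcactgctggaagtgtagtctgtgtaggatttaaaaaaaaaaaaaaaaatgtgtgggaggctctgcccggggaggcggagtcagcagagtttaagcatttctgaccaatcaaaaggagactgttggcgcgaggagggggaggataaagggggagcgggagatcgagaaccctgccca
Eif5a: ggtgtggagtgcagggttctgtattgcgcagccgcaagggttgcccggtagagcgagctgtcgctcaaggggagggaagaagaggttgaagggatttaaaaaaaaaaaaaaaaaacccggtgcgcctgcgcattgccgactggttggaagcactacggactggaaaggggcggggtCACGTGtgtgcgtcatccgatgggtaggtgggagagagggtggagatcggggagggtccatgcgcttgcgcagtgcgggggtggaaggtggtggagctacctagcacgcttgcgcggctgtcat
Mybbp1a: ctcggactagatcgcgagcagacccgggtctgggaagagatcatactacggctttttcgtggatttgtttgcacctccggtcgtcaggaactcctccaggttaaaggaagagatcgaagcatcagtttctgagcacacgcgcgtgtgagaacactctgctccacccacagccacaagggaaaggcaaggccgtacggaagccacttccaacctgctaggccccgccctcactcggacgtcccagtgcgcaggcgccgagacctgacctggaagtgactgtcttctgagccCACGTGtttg

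The match in Eif5a lies at -74 from the start and that in Mybbp1a at 41 after it. Of the 6 Eif5a windows 3 hold CACGTG, and the 1 shown is among them, so the matches shown are not a share of promoters. Of 32851 windows of this length over all genes, searched on both strands, 7.15% held CACGTG and 8.3% held TTCNNNGAA. Of the 12 genes named on the higher side below, 11 had a window, and CACGTG was in 5 of their 22 windows (22.7%). Of these 5, 3 are windows of Eif5a, and 2 of those 3 overlap and share their match. TTCNNNGAA was in 1 of those 22 windows (4.55%). Of the 12 genes on the lower side, 9 had 11 windows, of which 3 held CACGTG (27.3%) and 1 held TTCNNNGAA (9.09%). In the list of nucleolar and ribosome biogenesis genes, 46 of 51 measured genes had 55 windows, with CACGTG in 7 (12.7%) and TTCNNNGAA in 6 (10.9%). These shares describe letters in a window, and by their letters the motifs cannot overlap each other.

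Of 10762 features with a value on all 12 arrays (8707 named genes and 2055 spots without a gene name), none passed an adjusted p of 0.05 in limma for NLS against WT at 0GH. The lowest adjusted p was 0.293, shared by 5 features, 4 of them the named genes Pgam1, Phgdh, Eif5a and 1700012B09Rik. At an unadjusted p under 0.05 there were 750 features (6.97%), where an even spread of p-values would give 538. Of these, 356 (3.31%) were higher on the NLS arrays and 394 (3.66%) lower. Without the replicate block 232 were higher and 264 lower, and with neither block nor centring 41 and 198. Each of these pairs together falls short of 538, so the surplus is not seen in every fit. The median absolute difference over all features was 0.54 on the log2 scale, against a median standard error of 0.67. With 3 arrays a group, a simulated log2 difference of 2 was called in 16 of 200 changed features and one of 4 in 127 of 200, so few differences of the size usual here would pass. No gene below is therefore said to have changed, and all values are descriptions with their errors.

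Values are log2 ratios of sample over reference, centred on each array's median, so 0 is the array's middle feature. The deposited ratios ran the other way and their sign was turned. Of 46 genes of embryonic tissue fixed for that check, 36 to 42 had a value on each of these 6 arrays, and 81.6% to 92.1% of them then lay on the reference side. Between 14.0% and 29.0% of spots had no value on an array. At 0GH, 92 spots had a value on all 3 WT arrays and on no NLS array, and 18 the reverse. The NLS array was wider than the WT array in each letter, with a median absolute ratio of 1.04 against 0.88 for b, then 0.80 against 0.72 for c, then 1.01 against 0.89 for d. With features split into 5 nearly equal bins by level on the 1GH arrays, the lowest bin had a median NLS minus WT difference of -0.22 at 0GH and the highest one of 0.10, which became -0.02 and -0.10 once all arrays were scaled to a common spread. The scaled value is given beside the leading genes and most of the lists. The 235 control spots for Gapdh, a glycolytic enzyme used as a loading control, had medians higher on the NLS array by 0.39 (letter b), 0.55 (letter c) and 1.22 (letter d). The part of this in the results below was not tested.

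Pgam1, phosphoglycerate mutase of glycolysis, had the smallest p on the higher side. Its ratio was -3.74, -2.21 and -1.77 on WT arrays b, c and d, and -0.39, 0.31 and 1.28 on the NLS arrays. Every NLS array stood above every WT array. The difference was 2.97 ± 0.36 (SE), or 7.84-fold, with an adjusted p of 0.293 in limma, and 2.92 after scaling. Phgdh, which opens the serine synthesis pathway from a glycolytic intermediate, read -0.91, -0.03 and -0.16 on the WT arrays. On the NLS arrays it read 1.71, 2.32 and 2.41, again without overlap. The difference was 2.52 ± 0.34 (SE), or 5.72-fold, with an adjusted p of 0.293, and 2.27 after scaling. In Eif5a, the translation factor that carries the modified amino acid hypusine, WT arrays read -1.57, -0.88 and -1.03. NLS arrays read 0.05, 1.36 and 0.90, and the difference was 1.93 ± 0.28 (SE), or 3.80-fold, adjusted p 0.293, and 1.88 after scaling.

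The other 9 genes on the higher side had an adjusted p of 0.619 each. Inmt, which methylates indole amines, had the smallest spread within each group: 0.49, 0.26 and 0.30 on the WT arrays and 2.35, 2.36 and 2.26 on the NLS arrays, a difference of 1.97 ± 0.35 (SE). Ldha, which turns pyruvate into lactate, read -1.16, -0.45 and -0.00 on the WT arrays and 0.46, 1.13 and 1.59 on the NLS arrays (difference 1.59 ± 0.34). The kinase gene Sgk1 read -1.31, -2.28 and -1.71 against 0.52, -0.89 and 1.01 (1.98 ± 0.40). All 3 genes had their groups apart. Gbp2, a guanylate-binding GTPase induced by interferon, had the largest difference, at 3.80 ± 0.75 (SE), from -4.60, -4.86 and -5.72 on the WT arrays to -1.59, -1.36 and -0.81 on the NLS arrays. Its relative Gbp2b lay higher by 2.07 ± 0.45. Both were on the reference side in all 6 arrays, and probes for near-identical guanylate-binding genes can share signal. Marcksl1, an actin-binding protein, differed by 1.72, the splicing factors Snrpd2 and Usp39 by 1.92 and 1.81, and Uqcc2, an assembly factor of respiratory complex III, by 1.29. Groups did not overlap in 10 of the 12 genes, the exceptions being Snrpd2 and Gbp2b. Over all features, 4.66% had every NLS array above every WT array, and since the 12 were chosen on this contrast nothing is read from their count.

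The lower side was led by genes with wider errors, from 0.38 in Dmc1 to 1.22 in Sulf2, and only Sulf2 of these 12 genes belongs to a list fixed here. 1700012B09Rik read 1.01, -0.59 and 0.01 on the WT arrays and -0.76, -3.99 and -3.65 on the NLS arrays. The difference was -2.94 ± 0.42 (SE), with an adjusted p of 0.293, and -2.68 after scaling, and the groups did not overlap. Gphn, the scaffold protein gephyrin of inhibitory synapses, also needed for molybdenum cofactor synthesis, read -1.27, -1.56 and -1.47 against -4.38, -3.69 and -3.66. Its 2 spots gave the same sign and a difference of -2.47 ± 0.46, or -1.99 after scaling. Sulf2, an extracellular sulfatase that trims heparan sulfate, had the largest difference, at -5.35 ± 1.22 (SE). Its WT arrays read -0.20, -2.06 and -1.54 and its NLS arrays -9.82, -5.95 and -4.08, so letter b carried the widest gap. Without letter b the Sulf2 difference was -3.22, and after scaling it was -4.47.

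Hsdl1, a dehydrogenase-like protein, was far on the sample side in the WT arrays, at 8.0, 4.77 and 6.90, and at 2.54, 0.05 and 1.83 on the NLS arrays (-5.08 ± 1.04, SE). Tmem43, a protein of the inner nuclear membrane, read 4.54, 3.56 and 2.91 against 0.84, -1.09 and -1.22 (-4.16 ± 0.89). Tcte1, a component of the sperm axoneme, read 1.45, 3.31 and 0.20 against -2.66, -3.34 and -3.24 (-4.73 ± 1.05). In all 3 the groups stood apart. The remaining 6 were 4930431N21Rik at -3.70, Prss22, a serine protease, at -3.43, Wnt9b, a Wnt ligand, at -2.25, Dmc1, the recombinase of meiosis, at -1.87, Itpr3, a calcium channel of the endoplasmic reticulum, at -1.86 and the chaperone gene Dnajc17 at -1.81. Groups did not overlap in 11 of the 12 genes, Itpr3 being the exception. Over all features, 4.48% had every NLS array below every WT array. The 12 were chosen on this contrast, so nothing is read from their count. Apart from 1700012B09Rik, all had an adjusted p of 0.619.

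**Figure D1:**
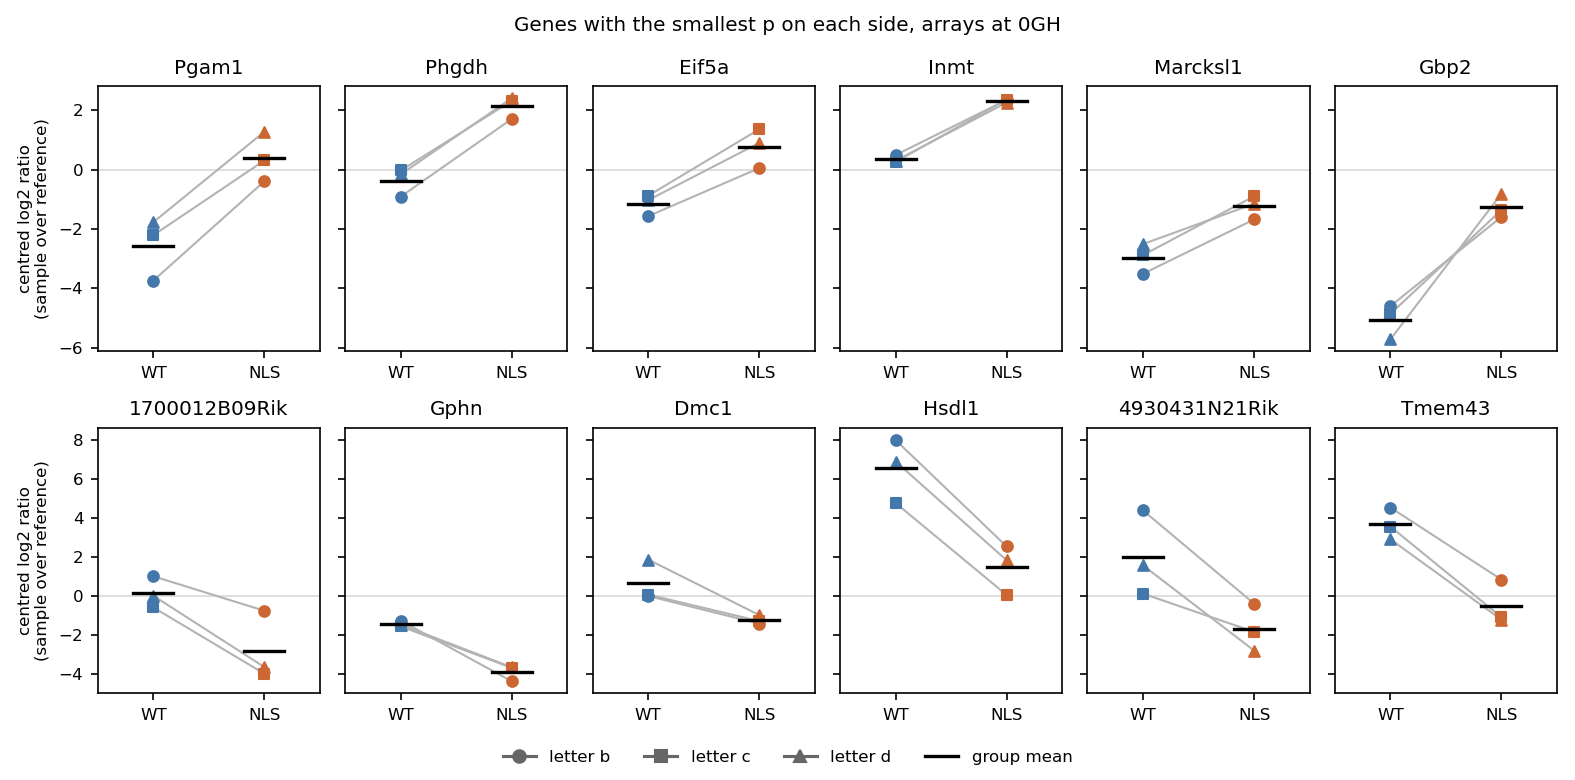
Centred log2 ratio of sample over reference for the 6 genes of smallest p on the higher side (top row) and on the lower side (bottom row), with 1 point per array at 0GH, lines joining the arrays of a letter and black bars for group means. In Pgam1 the 3 NLS arrays lie between -0.39 and 1.28, above the WT arrays at -3.74 to -1.77.

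At 1GH, the difference itself comes from 6 other arrays. Those arrays did enter the choice of the genes through the pooled error of the fit and the need for a value on every array, so p-values at 1GH reuse that error and are not counted here. All 12 higher genes had a positive NLS minus WT difference at 1GH, 9 of them in all 3 letters. Their median was 1.95 at 0GH and 0.97 at 1GH. Phgdh kept 1.90, Pgam1 1.77, Inmt 1.66 and Eif5a 1.37 at 1GH, while Gbp2 stood at 0.93 and Gbp2b at 0.14. Of the 12 lower genes, 9 were negative at 1GH, 3 of them in all 3 letters. Their median was -3.19 at 0GH and -0.15 at 1GH, with Tmem43 at -3.60, Sulf2 at -3.55 and 1700012B09Rik at -1.13, and with Gphn at 1.45, Prss22 at 1.19 and Hsdl1 at 1.16 on the other side of 0. The 4 groups share no array. Over all features, 53.7% had the same sign at 0GH and 1GH. No such share was taken for 1 sign in all 3 letters at 1GH, so nothing is read from those counts. The genes were chosen for large values at 0GH, so nothing is read from the smaller medians at 1GH. The test of the 0GH minus 1GH difference itself passed the adjusted threshold for no feature (lowest adjusted p 0.95 in limma, with 399 features, or 3.71%, at an unadjusted p under 0.05). At 1GH alone no feature passed either (lowest adjusted p 0.906, with 565 features, or 5.25%, at an unadjusted p under 0.05).

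**Figure D2:**
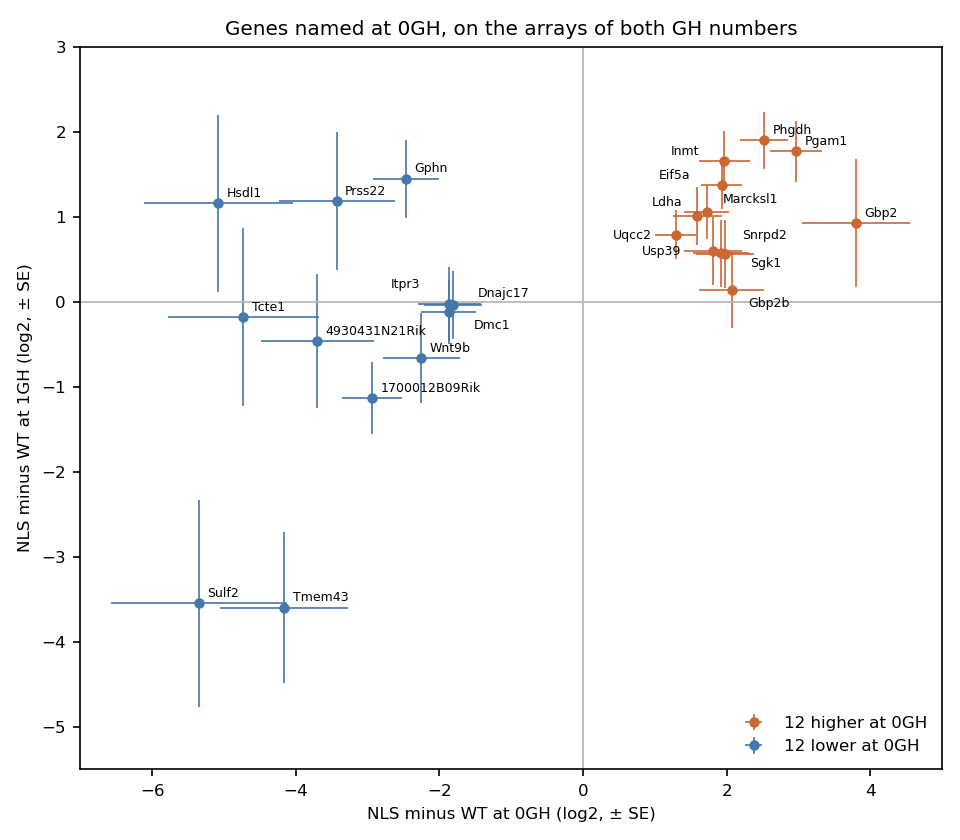
NLS minus WT difference (log2, bars ± SE of the fit) at 0GH, by which the genes were chosen, and at 1GH, for the 12 higher genes (orange) and the 12 lower genes (blue). All 12 higher genes lie above 0 at 1GH, while the lower genes run from -3.60 in Tmem43 to 1.45 in Gphn.

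Genes that build ribosomes lay higher on the NLS arrays as a group. Of 51 measured nucleolar and ribosome biogenesis genes, 39 had a positive difference, beside 49.7% of all features. The median was 0.61, beside 0.00 for all features, with letter medians of 0.62, 0.64 and 0.26 in b, c and d, and it was 0.50 after scaling. Higher in all 3 letters were 21 genes and lower in all 3 were 2, where 15.0% and 14.0% of all features were. At an unadjusted p under 0.05, 8 of 51 were higher and none lower, beside 3.31% and 3.66% of all features. Mybbp1a, a nucleolar protein that binds Myb, read 0.07, 0.45 and 0.51 on the WT arrays and 1.07, 2.19 and 2.12 on the NLS arrays. Its groups stood apart, with a difference of 1.45 ± 0.37 (SE) at 0GH and 1.43 at 1GH. Nhp2, a core protein of the particles that pseudouridylate ribosomal RNA, read -0.30, 0.04 and 0.47 against 1.07, 1.81 and 1.34 (1.33 ± 0.33, and 1.22 at 1GH). The helicase gene Ddx54 differed by 1.45, without overlap. Rrp8, which methylates ribosomal RNA, differed by 1.98 with overlap, its letter differences being 3.88, 0.07 and 1.99, and by 1.03 without letter b. The list's median at 1GH was 0.64, with 34 of 51 genes above 0. Its letter medians there were 0.80, 0.49 and -0.02 in b, c and d, so letter d showed none of it.

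Cytosolic ribosomal protein genes were above 0 in 52 of 59 measured, with a small median of 0.36. The letter medians were 0.05, 0.43 and 0.58 in b, c and d, so letter b showed almost none of it. The control spots for Gapdh also had their smallest difference at 0GH in letter b. At 1GH those spots differed by -0.15, 0.74 and -0.18 in b, c and d, and the list's letter medians were 0.24, -0.36 and -0.68. A link between the control spots and this list was not tested. In this list 23 genes were higher in all 3 letters and none lower, where 15.0% and 14.0% of all features were. At an unadjusted p under 0.05 in limma, 1 of 59 was higher (Rpl19, 0.79 ± 0.31), a smaller share than the 3.31% of all features. The scaled median was 0.27. Rps12, measured by 2 spots, read -0.57, 0.17 and 0.04 on the WT arrays and 1.12, 1.14 and 0.81 on the NLS arrays, without overlap. At 1GH, the list's median was -0.24 with 12 of 59 genes above 0. The difference between the 0GH and 1GH medians was not tested. The 56 mitochondrial ribosomal protein genes gave a median of 0.32 at 0GH, 40 of them above 0, and -0.05 at 1GH, where 24 were.

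The machinery around the ribosome lay on the same side. Of 37 translation factors 28 were above 0, with a median of 0.44 and with Eif5a (above) and the initiation factor Eif1ax, at 0.87 ± 0.30, at an unadjusted p under 0.05, so 2 of 37 beside 3.31% of all features. The scaled median was 0.29. Of 17 aminoacyl-tRNA synthetases, which load amino acids on tRNA, 14 were above 0 (median 0.42). In all 3 letters 3 of the 17 were higher, beside 15.0% of all features. At 1GH, 10 of 17 were above 0 (median 0.14). Vars, for valine, was the 1 synthetase higher at an unadjusted p under 0.05 in limma, beside 3.31% of all features. It read 0.87, 1.0 and 0.45 on the WT arrays and 4.89, 1.57 and 2.61 on the NLS arrays. The difference was 2.25 ± 0.94 at 0GH (1.37 without letter b) and -1.22 at 1GH. Polyamine and hypusine enzymes had the highest median of the 41 lists, 0.91, with letter medians of 0.91, 1.06 and 0.64 and 0.97 after scaling. In this list 7 of 9 genes were above 0 and 6 were higher in all 3 letters, beside 49.7% and 15.0% of all features. At 1GH the median was 0.28. Odc1, the first enzyme of polyamine synthesis, read -1.02, -1.49 and -0.73 on the WT arrays and -0.11, 0.53 and -0.19 on the NLS arrays (1.16 ± 0.44, and 1.40 at 1GH). The antizymes Oaz1 and Oaz2, which bring Odc1 to degradation, were at 0.98 and 1.51 at 0GH but at -0.38 and -0.08 at 1GH (unadjusted p of the difference 0.0184 and 0.0472, adjusted p 0.95 for each). Eif5a counts in this list and among the translation factors, so the lists are not separate evidence.

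Energy metabolism followed. Of 19 genes of glycolysis and glucose transport 14 were above 0, with a median of 0.53 and letter medians of 0.17, 0.34 and 1.11. None was lower in all 3 letters and 8 were higher, where 14.0% and 15.0% of all features were. Without letter d the median was 0.15. Beside Pgam1 and Ldha, Tpi1, triose phosphate isomerase, read -1.35, -3.07 and -0.11 on the WT arrays and 1.97, -1.46 and 1.46 on the NLS arrays. It was higher in every letter though the groups overlapped (2.17 ± 0.54 at 0GH and 1.80 at 1GH). Slc16a1, the lactate transporter of the cell membrane, lay higher by 1.18 ± 0.38. The Gapdh feature outside the control spots read -0.21, 0.46 and -0.30 against 0.45, 0.56 and 0.35, a difference of 0.47 ± 0.40. Oxidative phosphorylation, the list with the most measured genes, had 30 of 60 higher in all 3 letters and none lower, beside 15.0% and 14.0% of all features. Its median was 0.31, with 0.38, 0.39 and 0.57 in b, c and d, and 0.32 after scaling. Of its subunits, Ndufs6 and Ndufb7 of complex I lay higher by 0.85 and 1.69, Cyc1 of complex III by 0.91 and Atp5b of the ATP synthase by 0.99. In the citric acid cycle (median 0.30, 11 of 17 above 0) Idh3a lay higher by 1.42 ± 0.41 while Mdh2 stood at -1.69 ± 0.56, so its members were split.

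Serine, glycine and one-carbon enzymes, the list that holds Phgdh, were split. Of 12 measured, 6 were above 0 and 6 below, with letter medians of -0.16, 0.89 and -0.18. The fitted median was 0.31, or 0.44 after scaling, and 0.31 at 1GH. Gldc, of the glycine cleavage system, lay higher by 1.61 ± 0.73 and the mitochondrial enzyme Shmt2 by 0.87 ± 0.39, while Mthfd2, of mitochondrial folate metabolism, stood at -1.01 ± 0.49. Of 28 genes of purine and pyrimidine synthesis 19 were above 0 (median 0.25, and 0.11 after scaling). Nme1, a nucleoside diphosphate kinase, read -1.19, -0.21 and -0.61 on the WT arrays and 0.74, 1.43 and 1.05 on the NLS arrays. Its difference was 1.74 ± 0.41, without overlap, and 1.82 at 1GH. Cholesterol synthesis had a median of 0.34 with 9 of 14 genes above 0, with Msmo1, a sterol oxidase, of smallest p at 1.66 ± 0.48. Larger and less certain were Idi1 at 2.09 ± 1.06, Dhcr7 at 1.94 ± 1.0 and, on the other side, Tm7sf2 at -2.25 ± 1.11, all enzymes of the same route. Pentose phosphate enzymes were above 0 in 6 of 7 (median 0.40), fatty acid synthesis in 5 of 11 (median -0.02) and amino acid response genes in 7 of 12 (median 0.07).

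Protein folding and transport lists were also above 0. The TCP1 ring chaperonin, which folds actin and tubulin, had a median of 0.83 over 7 subunits, but 3 of the 7 were below 0. The 4 above it, Cct7, Tcp1, Cct6a and Cct5, differed by 0.89, 0.90, 1.0 and 0.83, each higher in all 3 letters and at an unadjusted p under 0.05, beside 3.31% of all features. Heat shock proteins and cochaperones had a median of 0.32, with 21 of 32 genes above 0. The immunophilins Fkbp1a, Fkbp3 and Fkbp4 had its smallest p-values, at 1.34, 1.28 and 1.16, each with its groups apart, while differences in the list ran from -1.25 to 3.03. Proteasome subunits were above 0 in 26 of 29 with a median of 0.32, or 0.25 after scaling. The exception in size was Psmc2, an ATPase of the regulatory particle, which read 4.69, 3.54 and 2.88 on the WT arrays and 0.17, -1.29 and 1.13 on the NLS arrays, a difference of -3.70 ± 1.10 at 0GH and 4.0 at 1GH. Nuclear pore and transport receptor genes, the route an NLS uses, were above 0 in 23 of 31 (median 0.51, or 0.44 after scaling, and 0.49 at 1GH). Nup93, of the pore's inner ring, read 0.39, 0.23 and -0.50 against 1.14, 1.44 and 1.37 (1.28 ± 0.35), and Ranbp1, a partner of the transport GTPase Ran, differed by 1.14. Of 51 splicing factors 36 were above 0, with a median of 0.43 and little spread over the letters (0.45, 0.42 and 0.31), and 0.42 after scaling.

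**Figure D3:**
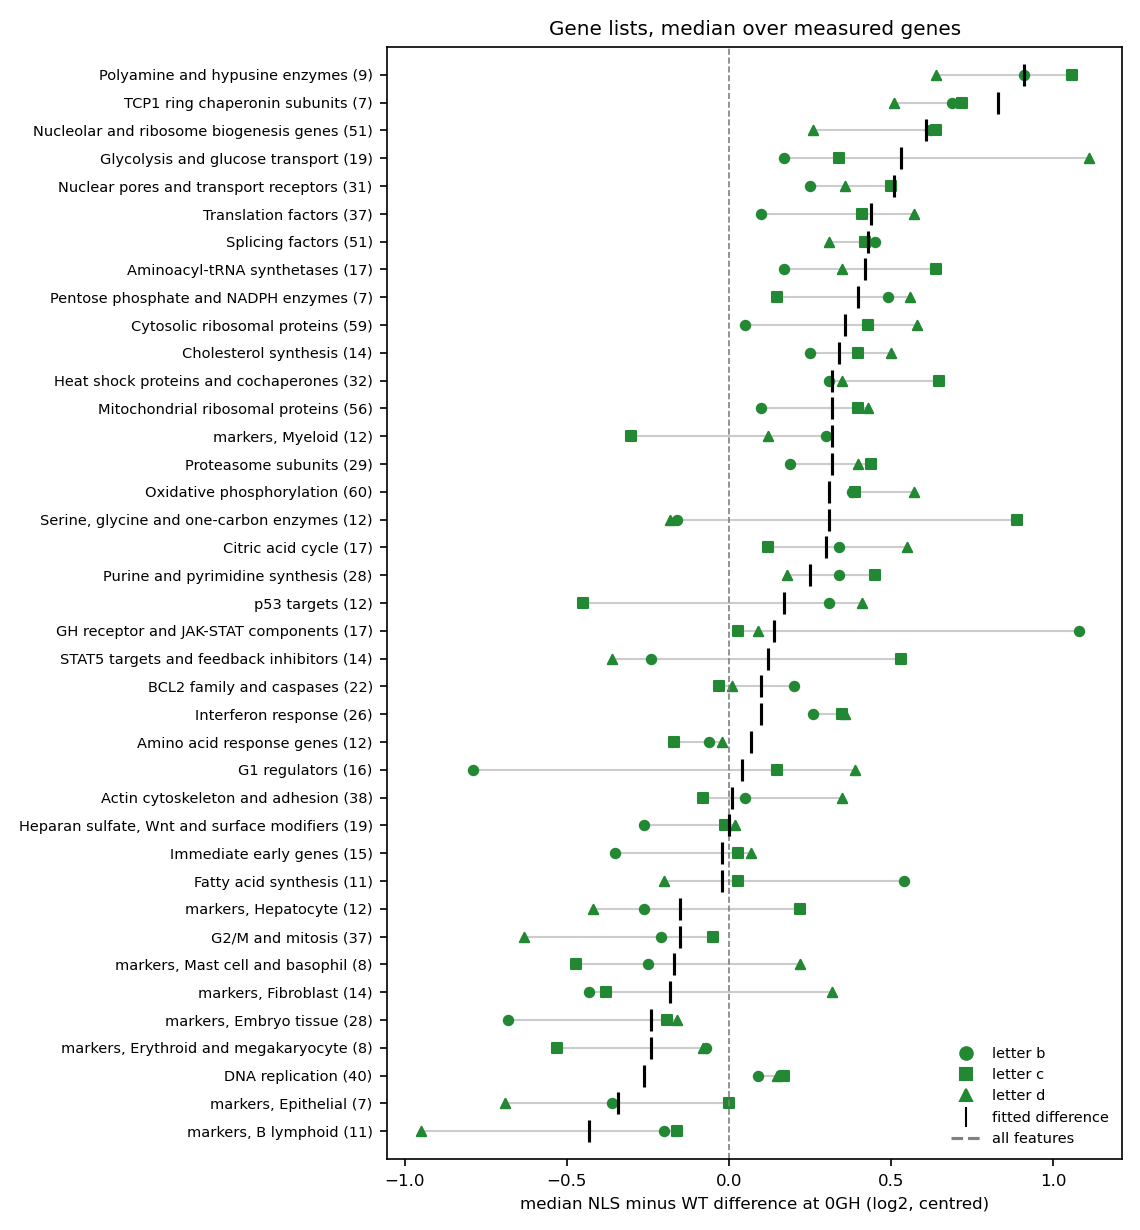
Median NLS minus WT difference at 0GH (log2) over the measured genes of each list with at least 5 measured genes, by letter (green symbols) and by the fit (black bars), number measured in brackets and a dashed line for all features. The polyamine and hypusine enzymes stand highest at 0.91 and the B lymphoid markers lowest at -0.43.

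By their fitted medians, cell-cycle genes did not lie higher with the growth lists. Of 37 genes of G2/M and mitosis 14 were above 0, with a median of -0.15. In all 3 letters 10 were lower and 4 higher, where 14.0% and 15.0% of all features were. At an unadjusted p under 0.05 in limma, 3 were lower and 3 higher, beside 3.66% and 3.31% of all features. Cenpf, of the kinetochore, lay lower at -1.59 ± 0.55 and Cenpu at -2.53 ± 0.90, while Kif4 and Tpx2, which act on the spindle, were at 1.23 and 1.01. In DNA replication 18 of 40 genes were above 0 with a median of -0.26, although the 3 letter medians were 0.09, 0.17 and 0.15, so the middle of the list has no stable side. Of these 40 genes 8 were higher in all 3 letters and 3 lower, where 15.0% and 14.0% of all features were. Cdc45, of the replicative helicase, read -0.17, -1.07 and 1.23 against 5.05, 1.62 and 1.99, a difference of 2.89 ± 0.95 at 0GH and -1.45 at 1GH. Mcm7, a subunit of the same helicase, lay higher by 0.77, and Pold3, of a replicative polymerase, stood at -2.82. G1 regulators had 9 of 16 genes above 0 (median 0.04), p53 targets 7 of 12 (0.17) and genes of the BCL2 family and caspases 14 of 22 (0.10). In the last list Bnip3l stood at -2.55 and Bcl2l13, at -2.07 here and -1.93 at 1GH, was lower in every letter.

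The measured genes of the growth hormone pathway itself had smaller fitted medians (0.14 for its components, 0.12 for STAT5 targets) than the ribosome, translation factor and glycolysis lists. Ghr read -0.65, -0.70 and 0.62 on the WT arrays and 0.36, -0.75 and 2.38 on the NLS arrays, with overlap and a difference of 0.91 ± 0.81 (SE). The part of the transcript that its spot reads is not known here, so the value is no check of the receptors. Without single arrays the value ran from 0.02 to 1.40. Of 17 measured components of the receptor and JAK-STAT pathway 11 were above 0 (median 0.14), 2 of the 17 higher at an unadjusted p under 0.05, beside 3.31% of all features. Those were Irs2, a docking protein of insulin-type receptors, at 2.11 ± 0.63 and Gab1, another docking protein, at 0.84 ± 0.35. Igf1r, the receptor for IGF-1, read 1.66, 1.17 and 0.93 against 0.58, 0.03 and 0.12, a difference of -1.01 ± 0.47 without overlap. That value rests on 1 of its 3 spots, and with at least 2 values in every group required in place of all 12 it was -0.01. Stat3 stood at -0.70 ± 0.45. Jak2, Stat5a, Stat5b, Socs3, Myc and Ccnd1 were not tested, since a value on every array was required.

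STAT5 targets and feedback inhibitors were above 0 in 8 of 14 measured, with a median of 0.12 and letter medians of -0.24, 0.53 and -0.36. Cish read 0.62, 0.08 and 2.95 on the WT arrays and 2.54, 2.11 and 1.75 on the NLS arrays, so WT array d stood above all others. Its difference was 0.92 ± 0.80, and from 0.22 to 2.04 with single arrays or letters left out. Socs2 read 3.53, 1.5 and 2.13 against 2.25, 1.18 and 1.35 (-0.79 ± 0.78), which puts the inhibitors on opposite sides. Among the cyclins, Ccnd3 read 0.41, 1.13 and 0.34 against -0.77, 0.13 and -0.07, without overlap, a difference of -0.86 ± 0.34 at 0GH and -1.33 at 1GH. Ccnd2 was at -1.5 ± 0.97. Pim1, a kinase induced by STAT5, rests on 1 array: it read -7.25 on WT array c, and its difference of 1.52 ± 2.06 became -1.54 without that array. Bcl2 (0.32 ± 0.41), Bcl2l1 (-0.07 ± 0.41) and Id1 (0.47 ± 0.60) differed by less than their standard errors. Birc5, the inhibitor of apoptosis survivin, was at 0.78 ± 1.0 and Fxyd5, a regulator of the sodium pump, at 1.57 ± 0.91, both with overlap. Letter b carried both: without it Birc5 was at -0.74 and Fxyd5 at 0.11. The Myc network gave 4 measured genes (median 0.08) and immediate early genes 7 of 15 above 0 (median -0.02).

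Interferon response genes were above 0 in 16 of 26, with a median of 0.10. The letter medians were 0.26, 0.35 and 0.36 in b, c and d. Higher in all 3 letters were 9 genes and lower 2, where 15.0% and 14.0% of all features were. The list's median ran from 0.12 to 0.52 with an array or letter left out and from 0.06 to 0.44 in other alternatives, so its size is not stable. Beside Gbp2, the transcription factor Irf1 lay higher, at 2.74 ± 0.88, and Irf8 lower, at -2.11 ± 0.87, so the list holds differences of either sign. Heparan sulfate, Wnt and surface modifiers had 6 of 19 genes lower in all 3 letters and 2 higher, beside 14.0% and 15.0% of all features. The median was 0.00. Beside Sulf2, Kremen2, a co-receptor of Wnt inhibitors, read 3.51, 0.10 and 0.45 against -5.75, -2.46 and -0.95 (-4.40 ± 1.31) and Sdc3, a heparan sulfate proteoglycan, differed by -1.94. Glce, which modifies heparan sulfate, stood on the other side at 3.76 ± 1.15. Genes of the actin cytoskeleton and adhesion were above 0 in 19 of 38 (median 0.01).

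Since the labels give no cell type, 8 marker lists of cell types other than the embryo were read. Hepatocyte markers lay far on the reference side, with list means from -4.53 to -3.18 over the 6 arrays, and fibroblast markers from -2.27 to -1.39. Higher means were seen for B lymphoid markers, 0.30 to 1.70 on the WT arrays and -0.25 to 1.17 on the NLS arrays, and for erythroid and megakaryocyte markers, 0.84 to 1.40 and 0.61 to 0.99. Myeloid means ran from -0.81 to -0.25 and from -1.09 to 0.47. Mast cell and basophil means ran from 0.33 to 0.45 and from 0.18 to 0.34, T lymphoid means, over 3 genes, from 0.02 to 0.46 and from 0.44 to 0.76, and epithelial means from -2.36 to -0.51 and from -2.11 to -1.43. A ratio to an embryo sets no absolute level, so no cell type is named from these. The B lymphoid list had 7 of 11 genes below 0 (median -0.43). In all 3 letters 5 were lower and none higher, where 14.0% and 15.0% of all features were. Ighm, the heavy chain of immunoglobulin M, over 5 spots of the same sign, read 0.10, -1.55 and -0.66 on the WT arrays and -1.0, -3.02 and -2.90 on the NLS arrays (-1.60 ± 0.38). Ms4a1, the CD20 antigen, read 2.90, -0.73 and 1.51 against -4.21, -2.31 and -1.05 (-3.75 ± 1.02). Without NLS array d the list's median was 0.06, and at 1GH it was 0.31. Of the erythroid and megakaryocyte list 6 of 8 genes were below 0 (median -0.24), with the transcription factor gene Gata1 at -1.36 ± 0.48 and the globin gene Hba-a1 at -1.10 ± 0.41. In the same list Itga2b stood on the other side at 0.73 ± 0.50, and Gp9 was at -0.23 ± 0.29. In RNA from whole cultures, fewer cells of a type and less RNA per cell cannot be told apart, and the part of these markers in the other results was not tested.

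Scaling all arrays to a common spread moved the median of cytosolic ribosomal proteins from 0.36 to 0.27, that of translation factors from 0.44 to 0.29, that of nucleolar genes from 0.61 to 0.50 and that of glycolysis from 0.53 to 0.45, all still above 0. It turned the sign of 6 of the 41 list medians, all small before: STAT5 targets from 0.12 to -0.04, p53 targets from 0.17 to -0.01, G1 regulators from 0.04 to -0.04, fatty acid synthesis and immediate early genes from -0.02 to 0.07 each, and hepatocyte markers from -0.15 to 0.46. The G2/M list stayed below 0 at -0.21. Leaving out an array or a letter moved 63 of the 134 named genes by more than 1.5 times. Of the 12 higher and 12 lower genes, Sulf2 was among these and no other was. The letters shared little across the whole array. The NLS minus WT differences of letters b and c correlated at 0.05 over the 10762 features, b and d at -0.00 and c and d at 0.09, given as descriptions since features are not replicates. Of 367 genes measured by several spots, 192 had spots that differed in sign, so a gene's value from a single spot carries that uncertainty as well. For any single value over 3 pairs of arrays, the smallest two-sided p of an exact sign-flip permutation test is 0.25.

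**Figure D4:**
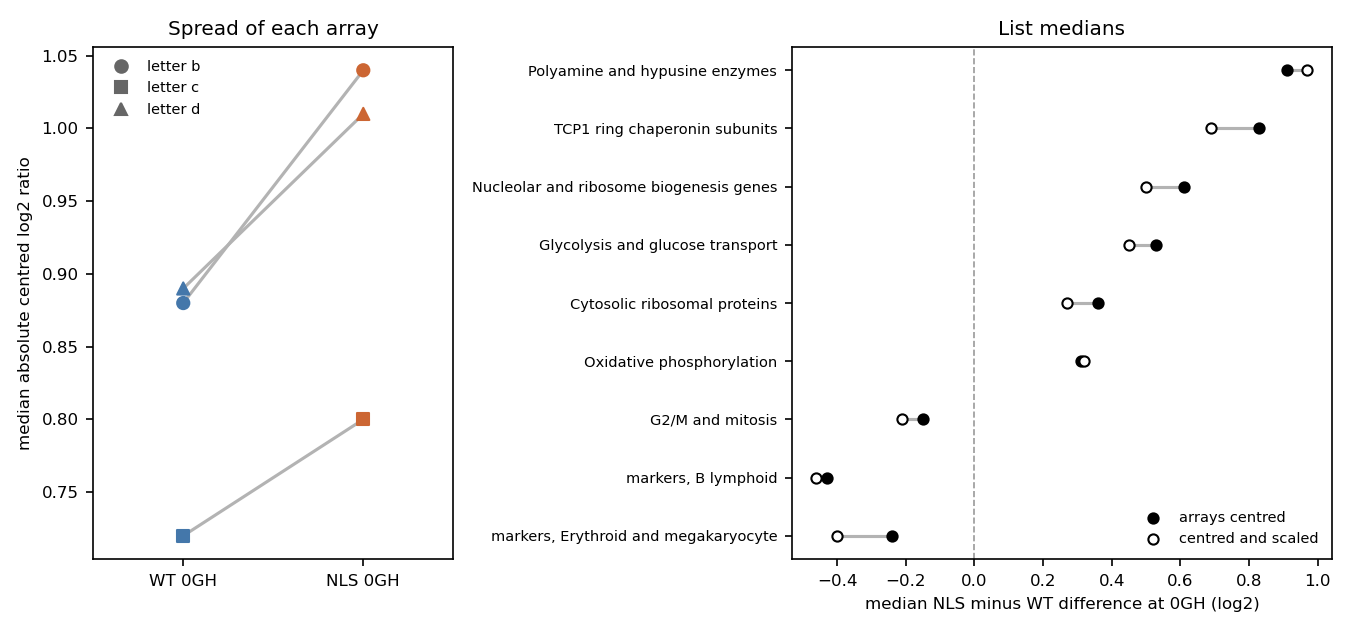
Left, the median absolute centred log2 ratio of each array at 0GH by letter, higher on the NLS array in all 3 letters. Right, list medians of the NLS minus WT difference (log2) with arrays centred (filled) and centred and scaled (open), where the 9 lists shown keep their sides, while 6 of the 41 lists, not shown, did not.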

How the data were processed

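RNA of 12 samples was read on 2-colour arrays of 23040 spots. The authors deposited 1 log2 ratio per spot and array. Per the series' design text, they normalised with Lowess over 50.0% of the data and set a floor of 200 on the control channel. The log base and the numerator are not stated; base 2 was taken from the range of values, and the sign was turned because embryo genes otherwise lay on the sample side. No scanner signal was used here, and the number of arrays limits the precision.

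After 902 control spots were left out (573 blank, 235 Gapdh, 94 labelled YIR), 16720 of 22138 spots had 1 gene symbol from the platform annotation, 142 several and 5276 none. Spots of a symbol were averaged, a value on all 12 arrays was required (11245 spots), and each array was centred on its median. limma 3.58.1 in R 4.3.3 fitted 4 group means with the letter as a block (6 residual degrees of freedom), with Benjamini-Hochberg adjustment over 10762 features and a threshold of 0.05. The letter was kept as a block because arrays of a letter share the red dye incorporation in the labels, and deviations of same-letter arrays correlated at 0.043 to 0.263 against -0.187 to 0.066 between letters. Named were, per direction, the 12 genes of smallest p with 1 sign in all letters, 4 genes of smallest p per list described and 20 fixed genes where measured. The comparison, the 32 gene lists, the 9 marker lists and this rule were chosen with earlier results of these data known. The fit was tested on simulated data, and 22 alternatives were tried, 9 of them leaving out an array or letter.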

Additional observations from a re-analysis of the deposited data

Results flagged for a closer look

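Genes and lists named above were looked at again where the NLS minus WT difference had opposite signs at 0GH and 1GH in every letter. No adjusted p of that difference in limma was below 0.95. Gphn differed by -3.92 between the GH numbers (-2.47 at 0GH and 1.45 at 1GH, unadjusted p 0.000323). Psmc2 differed by -7.70 (-3.70 and 4.0, unadjusted p 0.00118). Ms4a1 differed by -5.19 (-3.75 and 1.44, unadjusted p 0.00706). Cdc45 differed by 4.34 (2.89 and -1.45, unadjusted p 0.0124). Kremen2 differed by -4.81 (-4.40 and 0.40, unadjusted p 0.0323). For the DNA replication list the medians of the fitted differences were -0.26 and -0.21, a gap of -0.05, while its letter medians were all above 0 at 0GH (0.09, 0.17 and 0.15) and all below at 1GH (-0.02, -0.15 and -0.35); this difference was not tested.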

How the results depend on the processing

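Of 134 named genes, 129 kept their sign in all 22 alternatives, and the other 5 turned only when an array or letter was left out: Pim1 between -1.86 and 3.69, Birc5 between -0.74 and 1.85, Id1 between -0.17 and 1.29, Gadd45g between -0.25 and 1.78 and Bcl2l1 between -0.36 and 0.16. A move of more than 1.5 times was seen for 63 named genes in at least 1 leave-out and 20 in at least 1 other alternative. No alternative gave a feature past the adjusted threshold. Counts at an unadjusted p under 0.05 depended on the fit. Without the replicate block 232 features were higher and 264 lower. With the replicate block and no centring they were 161 and 484, and with neither 41 and 198, where the median of all features was -0.18. With at least 2 values in every group they were 434 and 593, and on the 6 arrays at 0GH alone 260 and 436. Quantile normalization gave 356 and 307, and scaling 289 and 317. Leaving out an array or letter gave 243 to 390 higher and 284 to 479 lower. Of 41 lists, 19 kept their median within the spread of the letters in all alternatives and 22 did not. Cytosolic ribosomal proteins and glycolysis were among the 19. Nucleolar genes, polyamine enzymes and oxidative phosphorylation were among the 22. Nucleolar genes had medians from 0.44 to 0.89, cytosolic ribosomal proteins from 0.23 to 0.45, glycolysis from 0.15 to 0.80, polyamine enzymes from 0.67 to 1.16 and oxidative phosphorylation from 0.26 to 0.44. The causes of these changes were not tested.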
